A study of Homo sapiens with 6 samples.

Results

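Small nucleolar RNA host genes are transcribed into spliced RNAs whose introns carry the small nucleolar RNAs (snoRNAs) that guide modification of ribosomal and other RNAs. The 26 genes described here are all rows of the deposited table of 59962 genes whose symbol is SNHG followed by a number, 25 of them, plus GAS5. They were examined in 6 whole-transcriptome libraries of CFPAC-1 cells, a line from a human pancreatic ductal tumour. SULF2 encodes an extracellular sulfatase that edits heparan sulfate, and the study set cells depleted of it against control cells. The groups were SULF2 knockdown with the guide sgRNA1 (2 libraries), SULF2 knockdown with the guide sgRNA3 (2 libraries) and a control knockdown with a guide against LACZ, a bacterial gene (2 libraries). All groups share the CFPAC-1 background and a guide RNA. The labels call every group a knockdown; they do not say how the guides act, or whether a group is a clone or a pool of cells.

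Host RNAs can serve twin purposes. The introns are trimmed to mature snoRNAs. In some hosts, such as GAS5, the spliced exons leave the nucleus with short open reading frames and are bound by ribosomes. The spliced RNAs of GAS5 and several others are destroyed by nonsense-mediated decay, the pathway that removes transcripts on which a ribosome stops early. Many hosts begin with a C followed by a run of pyrimidines, the 5′ terminal oligopyrimidine motif that ties translation of ribosomal protein mRNAs to growth signals. GAS5 takes its name from its accumulation in growth-arrested cells.

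The values are TPM, in which each gene's reads are divided by transcript length and every library is brought to an equal sum, so levels can be compared between genes, but they keep no sequencing depth, and the depth of each library is unknown. Between 15563 and 15923 genes per library reached 1 TPM. SULF2 stood at 8.98 and 12.8 TPM with sgRNA1 and at 10.1 and 9.24 TPM with sgRNA3, against 25.7 and 22.5 TPM with LACZ. It was lower with each guide (log2 changes -1.09 and -1.23, limma adjusted p = 0.0338 and 0.0215), and the call was lost without LACZ replicate 1 (0.159 and 0.106) and without LACZ replicate 2 (0.119 and 0.0888). Without a library of the guide itself, SULF2 had an adjusted p of 0.0737 for sgRNA1 without replicate 1, and of 0.0853 and 0.0973 for sgRNA3 without replicates 1 and 2. With sgRNA3 replicate 1 or 2 out of the joint fit, the sgRNA1 value was 0.0696 and 0.0695. Markers of duct and epithelium summed to 8026 to 9234 TPM per library, and 8 of 9 reached 1 TPM in every library. The sums were 37.0 to 76.5 TPM for 4 fibroblast markers, 2.52 to 9.04 TPM for 4 leukocyte markers, 3.88 to 4.7 TPM for 3 endothelial markers, 0.67 to 1.4 TPM for 3 acinar markers and 0 to 0.16 TPM for 3 islet markers, with INS and GCG at 0 throughout. Of the duct markers KRT18, KRT19 and SOX9 were lower with both guides, and the fibroblast sum was mostly COL1A1, at 57.4 and 55.5 TPM with sgRNA1 and 39.0 and 35.1 TPM with sgRNA3, against 74.8 and 74.0 TPM with LACZ (limma adjusted p = 0.0403 and 0.00361). The part of these shifts in the results on host genes was not tested. In bulk RNA, fewer cells with a transcript and less of it per cell cannot be told apart.

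The annotated 5′ ends show the feature that many of these genes share. A pyrimidine start was counted where a GENCODE 29 transcript begins with C followed by at least 4 further C or T. The ends below are the first 30 bases of the transcript with the longest such run, 5′ to 3′ in GRCh38, with the run in capitals. The first 4 belong to the genes that were lower with both guides.
GAS5: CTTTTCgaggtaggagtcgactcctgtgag
SNHG29: CTCCTTTTgtgaggattgggatattccgac
SNHG1: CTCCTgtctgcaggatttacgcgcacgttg
SNHG5: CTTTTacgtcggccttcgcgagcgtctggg
The next 4 belong to genes that did not pass the test with either guide, and are shown because these transcripts begin in the same way.
SNHG8: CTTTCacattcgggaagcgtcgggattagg
SNHG16: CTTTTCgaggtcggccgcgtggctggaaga
SNHG4: CCTTTCCCCTCCggcctctgccggtgctgc
SNHG12: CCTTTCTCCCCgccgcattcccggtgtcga
The transcripts shown for GAS5, which fell, and SNHG16, which did not pass, begin with the same 6 pyrimidines.

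At least 1 transcript with a pyrimidine start was annotated for 14 of the 26 host genes (53.8%), against 4.02% of 14968 other long non-coding genes and 14.6% of 19922 protein-coding genes. Of the 22 ribosomal protein genes that host snoRNAs, 81.8% had one. Host genes have many annotated transcripts, which raises the chance that one qualifies, so the share was also taken per transcript. It was 13.7% of 263 host gene transcripts, 2.4% of 28215 transcripts of other long non-coding genes, 2.59% of 151222 protein-coding transcripts and 20% of 255 transcripts of the ribosomal protein hosts. For SNHG1 only 1 of 25 transcripts met the definition, and that one starts inside the gene, at chr11:62855479 on the minus strand. The starts shown for GAS5 and SNHG29 also lie inside the annotated gene. Of the 4 called genes, SNHG5 alone had a qualifying run at its RefSeq start (chr6:85678733, minus strand), where GAS5 and SNHG29 had 0 pyrimidines and SNHG1 had 3. Of the uncalled genes shown, SNHG8 had 1 and SNHG16 had 0 at the RefSeq start, while SNHG4 had 13 and SNHG12 had 11. For SNHG8 1 of 5 transcripts met the definition, and for SNHG16 2 of 8. These shares describe the annotation and were not tested.

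The 26 genes spanned levels from 0 TPM, for SNHG18, to 667 TPM, for GAS5 in a LACZ library. GAS5 was highest in every library, followed by SNHG29, SNHG1, SNHG6 and SNHG8 in the order of mean TPM over all libraries. These 5 together made up 76.5% to 79.5% of all host gene TPM in a library, and GAS5 alone 22.1% to 26.7%. A middle tier of SNHG5, SNHG16 and SNHG14 averaged 90.9, 69.5 and 68.7 TPM over all libraries. SNHG16 lay above SNHG14 in both LACZ libraries and below it in the libraries of each guide. The order of SNHG29 and SNHG1 differed between groups, since SNHG1 exceeded SNHG29 with LACZ (mean 497 against 439 TPM) and lay below it with sgRNA1 (264 against 350 TPM) and sgRNA3 (309 against 387 TPM). The remaining 18 genes averaged 32.3 TPM or less.

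**Figure D1:**
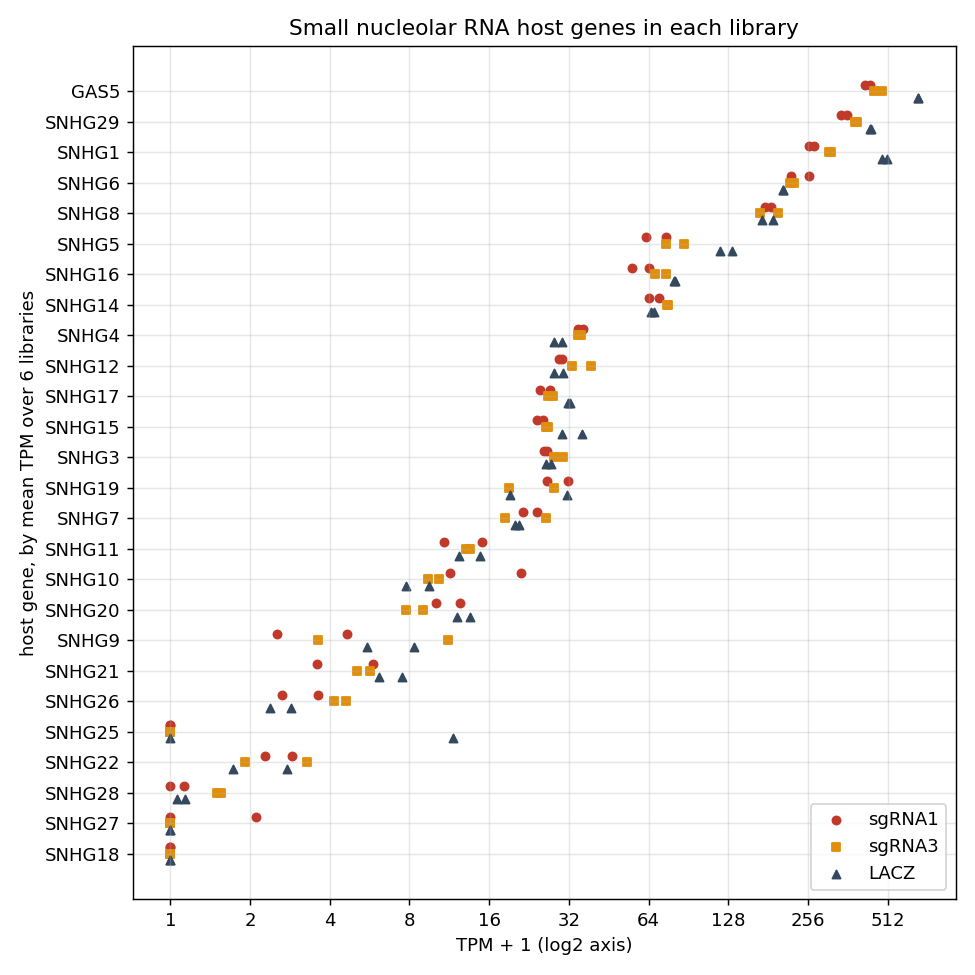
TPM + 1 on a log2 axis for each of the 26 host genes, ordered by mean level, with 1 point per library for sgRNA1, sgRNA3 and LACZ cells. The LACZ points of GAS5, SNHG1 and SNHG5 lie above those of both guides, while the points of SNHG8 mix.

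Tests were made with limma on log2(TPM + 1), with p-values adjusted over all 16610 genes that had at least 1 TPM in at least 2 libraries and a threshold of 0.05. This filter kept 22 of the 26 host genes. With sgRNA1, 4 of the 22 were lower than with LACZ (18.2%, against 4.31% of all genes tested) and none was higher (against 1.69%), with 7 lower and 3 higher at an unadjusted p under 0.05. With sgRNA3, 4 were lower (against 5.25%) and none higher (against 3.84%), with 7 lower and 4 higher at an unadjusted p under 0.05. GAS5, SNHG1, SNHG5 and SNHG29 were the genes called with each guide, where 2.9% of all genes were lower with both. The comparisons share the LACZ libraries, so the second is no independent repeat of the first. Among long non-coding genes other than the hosts, 1.68% were lower with sgRNA1 and 2.23% with sgRNA3. The called hosts are also abundant: of genes with a mean of at least 50 TPM, a limit chosen after the values were seen, 9.13% and 9.91% were lower, and 4 of the 8 hosts in that range were called. The median log2 change of the 22 hosts was -0.06 with each guide, close to the -0.07 and -0.05 of all genes tested, and with each guide 10 hosts had a positive and 12 a negative change.

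GAS5 (ENSG00000234741, chr1:173863900-173868882, minus strand) had 419 and 438 TPM with sgRNA1 and 452 and 485 TPM with sgRNA3, against 667 and 663 TPM with LACZ. The LACZ libraries lay above all SULF2 guide libraries, and the means were 64.4% and 70.5% of the LACZ mean. GAS5 fell by 0.63 on the log2 scale with sgRNA1 (SE 0.05, limma adjusted p = 0.00391) and by 0.50 with sgRNA3 (SE 0.05, adjusted p = 0.00755). The sgRNA3 call was lost without LACZ replicate 1 (0.0550) and without LACZ replicate 2 (0.0559), while the sgRNA1 call passed with any library left out.

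SNHG1 (ENSG00000255717, chr11:62851988-62855914, minus strand), which carries SNORD22 and several other snoRNAs, had 269 and 258 TPM with sgRNA1 and 306 and 311 TPM with sgRNA3, against 509 and 485 TPM with LACZ. The 3 groups did not overlap, with sgRNA1 lowest. SNHG1 fell by 0.91 with sgRNA1 (SE 0.04, limma adjusted p = 0.00117) and by 0.68 with sgRNA3 (SE 0.04, adjusted p = 0.00284). These were the lowest adjusted p-values among the hosts, and both calls passed under all 17 alternative settings tried.

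SNHG5 (ENSG00000203875, chr6:85660950-85678748, minus strand), which carries SNORD50B, had 61.9 and 73.3 TPM with sgRNA1 and 86.2 and 73.7 TPM with sgRNA3, against 132 and 118 TPM with LACZ. Both guides lay below LACZ, and relative to its level the libraries within each group differed more than for GAS5 or SNHG1. SNHG5 fell by 0.88 with sgRNA1 (SE 0.12, limma adjusted p = 0.0210) and by 0.64 with sgRNA3 (SE 0.12, adjusted p = 0.0375). The sgRNA1 call was lost without LACZ replicate 1 (0.114), LACZ replicate 2 (0.0892), sgRNA1 replicate 1 (0.0781) or sgRNA1 replicate 2 (0.0655). The sgRNA3 call was lost without LACZ replicate 1 (0.151), LACZ replicate 2 (0.110), sgRNA3 replicate 1 (0.0800) or sgRNA3 replicate 2 (0.131).

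SNHG29 (ENSG00000175061, chr17:16438822-16478678, plus strand), which GENCODE 29 lists as LRRC75A-AS1 and which carries SNORD49A, SNORD49B and SNORD65, had 341 and 359 TPM with sgRNA1 and 384 and 390 TPM with sgRNA3, against 437 and 440 TPM with LACZ. Here too the groups did not overlap, but on the log2 scale the changes were the smallest of the 4 called genes. SNHG29 fell by 0.33 with sgRNA1 (SE 0.04, limma adjusted p = 0.0150) and by 0.18 with sgRNA3 (SE 0.04, adjusted p = 0.0478). The sgRNA1 call was lost without LACZ replicate 1 (0.0877), LACZ replicate 2 (0.0895) or sgRNA1 replicate 1 (0.0546), and under median-of-ratios scaling (0.0605). The sgRNA3 call was lost without any one of the 6 libraries (0.0526 to 0.185) and under median-of-ratios scaling (0.196).

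**Figure D2:**
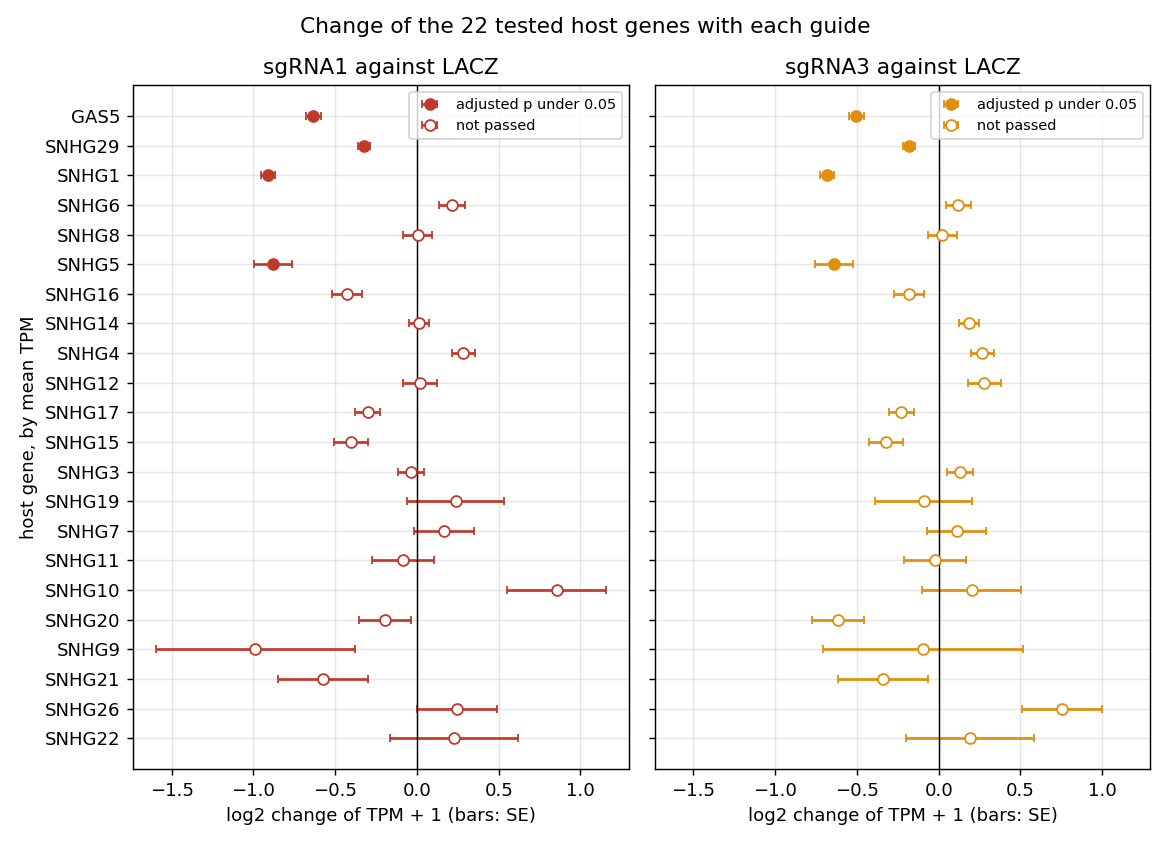
Log2 change against LACZ, with its standard error, of the 22 tested host genes for sgRNA1 and sgRNA3; filled points have a limma adjusted p under 0.05. SNHG1, SNHG5, GAS5 and SNHG29 are filled for both guides, and no filled point lies above 0.

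SNHG6, SNHG8, SNHG16 and SNHG14, the other hosts of high level, did not pass the test with either guide, and they did not move together. SNHG6, the host of SNORD87, had 220 and 257 TPM with sgRNA1 and 226 and 219 TPM with sgRNA3, against 204 and 205 TPM with LACZ. All guide libraries lay above LACZ, by log2 differences of 0.21 and 0.12 (SE 0.08 each, limma adjusted p = 0.171 and 0.377). SNHG8, the host of SNORA24, had 175 and 184 TPM with sgRNA1 and 196 and 168 TPM with sgRNA3, against 170 and 188 TPM with LACZ. The groups overlapped, and the 95% intervals of the log2 difference ran from -0.22 to 0.23 for sgRNA1 and from -0.20 to 0.25 for sgRNA3. These intervals hold no value as low as the changes of GAS5, SNHG1 or SNHG5. SNHG16, the host of SNORD1A, SNORD1B and SNORD1C, had 63.3 and 54.6 TPM with sgRNA1 and 73.6 and 66.5 TPM with sgRNA3, against 79.9 and 79.0 TPM with LACZ. Its groups were ordered like those of the called genes, with log2 differences of -0.43 and -0.18 (SE 0.09 each, adjusted p = 0.0598 and 0.266), and the sgRNA1 difference passed when only genes of at least 5 TPM were tested (0.0421). SNHG14, a long transcript over the imprinted region of chromosome 15 that carries the SNORD116 array, had 69.0 and 63.3 TPM with sgRNA1 and 74.5 and 74.6 TPM with sgRNA3, against 66.2 and 64.6 TPM with LACZ. Only sgRNA3 was apart from LACZ, by 0.19 on the log2 scale (SE 0.06, adjusted p = 0.123).

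Of the other 14 tested hosts, SNHG20, SNHG4, SNHG15 and SNHG17 stood closest to the threshold. SNHG17 and SNHG15 lay below LACZ in all guide libraries, with log2 differences of -0.30 and -0.23 for SNHG17 (adjusted p = 0.0883 and 0.131) and -0.40 and -0.32 for SNHG15 (0.0861 and 0.115). SNHG4 lay above LACZ in all guide libraries at 35.3 and 33.8 TPM with sgRNA1 and 34.5 and 33.7 TPM with sgRNA3, against 27.2 and 29.2 TPM with LACZ. Its log2 differences of 0.28 and 0.27 had adjusted p-values of 0.0827 and 0.0785, and under median-of-ratios scaling they were 0.37 and 0.32 and passed (0.0395 and 0.0423). SNHG20 lay below LACZ in both sgRNA3 libraries, at 7.98 and 6.75 TPM against 11.1 and 12.5 TPM with LACZ (log2 difference -0.62, adjusted p = 0.0750). The remaining 10, which are SNHG12, SNHG3, SNHG19, SNHG7, SNHG11, SNHG10, SNHG9, SNHG21, SNHG26 and SNHG22, averaged between 1.47 and 30.6 TPM and had adjusted p-values of at least 0.121 against LACZ.

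Some of the low genes differed widely between the libraries of a single group. SNHG10, the host of SCARNA13, had 20.1 and 10.4 TPM with sgRNA1, against 6.78 and 8.45 TPM with LACZ, so its mean with sgRNA1 was 200.1% of the LACZ mean, with 1 library far above the other (log2 difference 0.85, SE 0.30, limma adjusted p = 0.166). SNHG9 had 1.53 and 3.63 TPM with sgRNA1 and 10.2 and 2.61 TPM with sgRNA3, against 4.51 and 7.36 TPM with LACZ. SNHG19 had 25.5 and 30.8 TPM with sgRNA1 and 27.1 and 18.0 TPM with sgRNA3, against 18.2 and 30.6 TPM with LACZ. The annotated lengths in the table are 471 bases for SNHG9 and 342 bases for SNHG19, among the shortest of the hosts. Over the tested hosts, the median absolute log2 difference between the libraries of a group was 0.19 with sgRNA1, 0.14 with sgRNA3 and 0.13 with LACZ, beside 0.15, 0.13 and 0.14 over all genes tested.

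SNHG25, SNHG27, SNHG28 and SNHG18 were not tested because fewer than 2 libraries reached 1 TPM. SNHG25 was listed at 10.7 TPM in LACZ replicate 1 and at 0 in the other 5 libraries. SNHG27 was listed at 1.11 TPM in sgRNA1 replicate 1 and at 0 elsewhere. SNHG28 ranged from 0 to 0.56 TPM, and SNHG18 was listed at 0 in all libraries.

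Summed over all 26 genes, host RNA came to 1857 and 1918 TPM with sgRNA1 and 2046 and 2017 TPM with sgRNA3, against 2499 and 2492 TPM with LACZ. GAS5, SNHG1, SNHG5 and SNHG29 contributed 1091 and 1128 TPM with sgRNA1 and 1229 and 1261 TPM with sgRNA3, against 1745 and 1707 TPM with LACZ. The other 22 genes summed to 766 and 790 TPM with sgRNA1 and 817 and 756 TPM with sgRNA3, against 754 and 785 TPM with LACZ. The lower total with the guides was thus carried by 4 genes, whose share of host TPM was 58.7% and 58.8% with sgRNA1 and 60.1% and 62.5% with sgRNA3, against 69.8% and 68.5% with LACZ. These 4 genes were picked by their fall, so the sums are a description.

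In sgRNA3 against sgRNA1, none of the 22 hosts passed by limma (0.391% of all genes were higher and 0.187% lower), with 6 higher and 1 lower at an unadjusted p under 0.05. The called genes all had the higher mean with sgRNA3. The log2 difference of sgRNA3 over sgRNA1 was 0.23 for SNHG1 (95% interval 0.12 to 0.34, adjusted p = 0.118), 0.24 for SNHG5 (-0.06 to 0.54, 0.417), 0.15 for SNHG29 (0.05 to 0.24, 0.190) and 0.13 for GAS5 (0.01 to 0.25, 0.288). The median over the hosts was 0.11, beside 0.04 over all genes tested.

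Among the 12 tested hosts with a pyrimidine start in at least 1 annotated transcript, 4 were lower with each guide (against 4.31% and 5.25% of all genes tested). Among the 10 without one, 0 were. The medians of these 12 and 10 genes, however, were close: -0.06 and -0.09 with sgRNA1, and -0.06 and 0.01 with sgRNA3. The pyrimidine start was therefore present both in hosts that fell and in hosts that were not called, such as SNHG8 (0.00 with sgRNA1 and 0.02 with sgRNA3) and SNHG12 (0.02 and 0.28, limma adjusted p = 0.935 and 0.153). Level differed between the starts as well. The called hosts averaged at least 50 TPM, while of the hosts without such a start SNHG14 (68.7 TPM) was highest and SNHG17 (27.4 TPM) next. The split also depends on counting a gene if any annotated transcript qualifies. At the RefSeq start, SNHG5 alone of the called genes had a qualifying run. The uncalled SNHG4, SNHG12 and SNHG19 had runs of 13, 11 and 6 there. With 4 called genes the split between starts, and the part of level in it, was not tested.

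The snoRNAs carried by the hosts could not be followed in this table. It holds 135 rows of small RNAs lying within 24 of the hosts, and 130 of them are at 0 in all libraries. The 84 rows within SNHG14 and the 7 within SNHG1 are all at 0, and no such row was matched to GAS5. Only annotated small RNAs inside a host, on its strand and with a row here, were matched, so this does not say that GAS5 carries none. The 5 rows above 0 include SCARNA16 in SNHG20, which reached 39.5 TPM, SNORA73A and SNORA73B in SNHG3, SNORA71B in SNHG17 and SCARNA13 in SNHG10. The levels above are therefore those of the host gene rows and say nothing of mature snoRNAs. Spliced and unspliced forms of a host RNA were not told apart.

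Some hosts share exon sequence with neighbouring genes, and since the strandedness of the libraries is not given, reads of such pairs cannot be told apart with certainty. On the same strand, SNHG3 overlaps RCC1, SNHG4 overlaps MATR3, SNHG14 overlaps SNRPN and AC124312.3, and SNHG20 overlaps SEC14L1. Opposite-strand overlaps include those of SNHG14 with UBE3A, SNHG6 with MCMDC2 and SNHG16 with AC015802.6. SEC14L1 had 71.4 and 61.9 TPM with sgRNA1 and 76.3 and 76.8 TPM with sgRNA3, against 108 and 106 TPM with LACZ. It was lower with each guide (log2 changes -0.68 and -0.48, limma adjusted p = 0.0144 and 0.0267), and the calls were lost without LACZ replicate 1 (0.0895 and 0.122) or LACZ replicate 2 (0.0843 and 0.110), the sgRNA3 call also without sgRNA3 replicate 1 (0.117) or 2 (0.110). Of the called hosts, GAS5 overlaps GAS5-AS1 and SNHG29 overlaps LRRC75A on the opposite strand, and no exon overlap was found for SNHG1 or SNHG5.

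SNHG1 starts 188 bases from SLC3A2, which is transcribed the other way and encodes the heavy chain of several amino acid transporters. SLC3A2 had 148 and 140 TPM with sgRNA1 and 187 and 196 TPM with sgRNA3, against 310 and 305 TPM with LACZ. The 3 groups did not overlap and stood in the same order as for SNHG1. SLC3A2 fell by 1.09 with sgRNA1 (SE 0.05, limma adjusted p = 0.000827) and by 0.68 with sgRNA3 (SE 0.05, adjusted p = 0.00333), and both calls passed with any library left out. Between the guides, sgRNA3 was higher by 0.41 (adjusted p = 0.0420), a call lost when any 1 of the 6 libraries was left out, at 0.124 and 0.126 without LACZ replicates 1 and 2, 0.104 and 0.167 without sgRNA1 replicates 1 and 2, and 0.137 and 0.189 without sgRNA3 replicates 1 and 2. The stretch shown here is chr11:62855836-62856135 on the minus strand, from RefSeq (GRCh38.p14), with 250 bases before and 50 bases from the RefSeq start of SNHG1; capitals mark the bases from that start on. It is given because it also takes in the annotated start of SLC3A2 on the other strand.
SNHG1 promoter: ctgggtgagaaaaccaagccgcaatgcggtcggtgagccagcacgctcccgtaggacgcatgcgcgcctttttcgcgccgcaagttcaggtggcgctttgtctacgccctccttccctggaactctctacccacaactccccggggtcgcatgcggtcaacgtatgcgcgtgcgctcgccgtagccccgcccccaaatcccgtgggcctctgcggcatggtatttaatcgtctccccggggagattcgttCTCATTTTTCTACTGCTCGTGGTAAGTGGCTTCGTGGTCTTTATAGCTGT

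The other hosts with a tested gene starting within 1000 bases on the opposite strand gave no further pair in which both were called. GAS5 starts 800 bases from ZBTB37, which had 2 and 1.92 TPM with sgRNA1 and 2.75 and 2.77 TPM with sgRNA3, against 2.38 and 2.43 TPM with LACZ, and was not called (log2 differences -0.20 and 0.14, limma adjusted p = 0.536 and 0.643). RPS2, a ribosomal protein gene 99 bases from SNHG9, had adjusted p-values of 0.618 and 0.842, TRAF7, 340 bases from SNHG19, of 0.792 and 0.215, and ACAA2, 63 bases from SNHG22, of 0.330 and 0.0693. The antisense gene AC015802.4, 83 bases from SNHG16, reached at most 1.39 TPM and was not called (0.967 and 0.275).

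Promoter sequence in the RefSeq table was found for 22 of the 26 hosts, and 3 motifs were searched on both strands in the 300 bases around the start. CACGTG, the E-box read by MYC, was in 1 host promoter, that of SNHG7, against 7.26% of 35116 promoters. TGATGCAA, a form of the element bound by ATF4 with its partners, was in 0 (against 0.866%), and TGACGTCA, the cyclic AMP response element, was in 0 (against 1.85%). No match says only that these letters are not in the window. For GAS5, SNHG1, SNHG5 and SNHG29 the RefSeq start on which the window lies differs from the GENCODE gene start. SNHG6, SNHG9, SNHG15 and SNHG25 had no window, and an annotated SNHG15 transcript holds CACGTG within its first 30 bases.

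Hosts outside the SNHG series gave a mixed picture. Of 4 tested non-coding hosts, DANCR was higher and ZFAS1 lower with sgRNA1, while DANCR was higher and EPB41L4A-AS1 lower with sgRNA3. That is 25% in each direction, against 1.69% higher and 4.31% lower of all genes tested with sgRNA1, and 3.84% and 5.25% with sgRNA3. The fourth, NOP14-AS1, was not called (log2 differences -0.05 and 0.13, limma adjusted p = 0.836 and 0.546). DANCR had 63.6 and 65.7 TPM with sgRNA1 and 63.3 and 63.0 TPM with sgRNA3, against 47.1 and 44.3 TPM with LACZ. It rose by 0.49 and 0.46 on the log2 scale (SE 0.06, limma adjusted p = 0.0155 and 0.0151), calls lost without LACZ replicate 1 (0.0695 and 0.0630), LACZ replicate 2 (0.0890 and 0.0824) or a library of the same guide (0.0603 to 0.0852, for replicates 1 and 2 of each). DANCR thus moved opposite to GAS5. ZFAS1, the host of the SNORD12 family, had 301 and 285 TPM with sgRNA1 and 384 and 316 TPM with sgRNA3, against 483 and 465 TPM with LACZ. Its guide libraries all lay below LACZ, with a fall of 0.69 for sgRNA1 (SE 0.10, adjusted p = 0.0222) that was lost without LACZ replicate 1 (0.118), LACZ replicate 2 (0.102), sgRNA1 replicate 1 (0.0834) or sgRNA1 replicate 2 (0.117). With sgRNA3 the log2 difference of ZFAS1 was -0.44 (adjusted p = 0.0508, and 0.0330 without sgRNA3 replicate 1). EPB41L4A-AS1 had 14.6 and 24.0 TPM with sgRNA1 and 9.69 and 10.8 TPM with sgRNA3, against 27.2 and 21.9 TPM with LACZ. It fell by 1.18 with sgRNA3 (SE 0.25, adjusted p = 0.0477), lost without LACZ replicate 1 (0.177), LACZ replicate 2 (0.125), sgRNA3 replicate 1 (0.164) or sgRNA3 replicate 2 (0.138) and under median-of-ratios scaling (0.0583) or quantile normalization (0.0598), and differed by -0.36 with sgRNA1 (0.430).

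**Figure D3:**
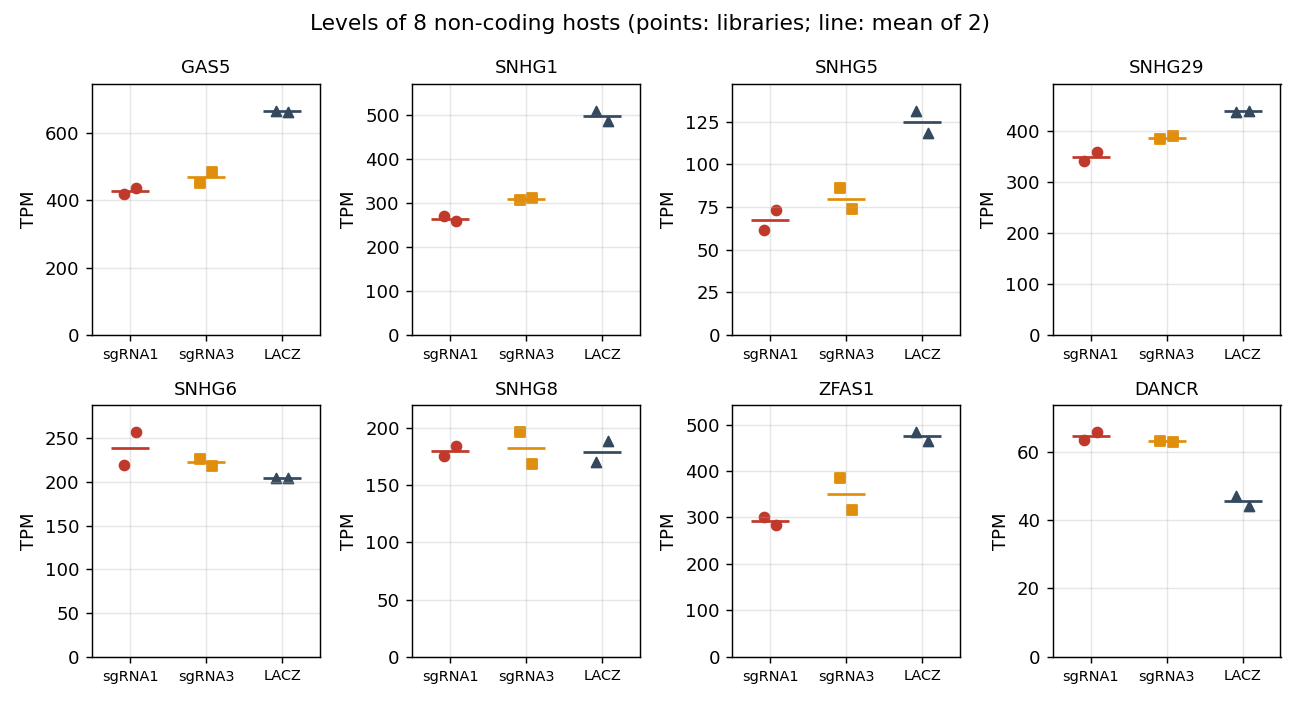
TPM of 8 abundant non-coding host genes (GAS5, SNHG1, SNHG5, SNHG29, SNHG6, SNHG8, ZFAS1 and DANCR), with 1 point per library and a line at the mean of the 2 libraries of each group. GAS5 stands at 419 to 485 TPM in the guide libraries and at 663 and 667 TPM with LACZ, while DANCR is higher in the guide libraries than with LACZ.

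Protein-coding hosts outside the ribosome were called in both directions. With sgRNA1, 3 of 29 were higher (10.3%, against 1.69% of all genes tested) and 4 lower (13.8%, against 4.31%). With sgRNA3, 8 were higher (27.6%, against 3.84%) and 4 lower (13.8%, against 5.25%). The medians were -0.05 and 0.03. HSPA8, a constitutive chaperone of the HSP70 family, had 1223 and 1202 TPM with sgRNA1 and 1400 and 1443 TPM with sgRNA3, against 567 and 618 TPM with LACZ. It rose by 1.03 and 1.26 (SE 0.05, limma adjusted p = 0.00117 and 0.00111) and kept both calls with any library left out. NOP56, a core protein of box C/D snoRNA particles, also rose, by 0.39 and 0.52 (adjusted p = 0.00858 and 0.00364), the sgRNA1 call being lost without LACZ replicate 1 (0.0687) or 2 (0.0586). EIF4A2, an RNA helicase of translation initiation, fell by 0.42 and 0.37 (adjusted p = 0.00564 and 0.00784). EIF5, which triggers start codon recognition, fell by 0.35 and 0.25 (adjusted p = 0.0105 and 0.0209). Without LACZ replicate 1 the EIF4A2 values were 0.0558 and 0.0558 and the EIF5 values 0.0736 and 0.0987, and without LACZ replicate 2 the sgRNA3 value of EIF4A2 was 0.0502 and the EIF5 values were 0.0533 and 0.0824. The sgRNA3 calls of both were also lost without sgRNA3 replicate 1 (0.0533 for EIF4A2, 0.113 for EIF5) or 2 (0.0588 and 0.0844), and the sgRNA1 call of EIF5 without sgRNA1 replicate 2 (0.0657). TAF1D, whose introns hold several snoRNAs, was not called (log2 differences -0.25 and 0.02, adjusted p = 0.0610 and 0.856), though with sgRNA1 it passed when only genes of at least 5 TPM were tested (0.0465).

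The 22 ribosomal protein genes that host snoRNAs, most of which have a pyrimidine start, showed small differences: every log2 change lay between -0.19 and 0.25, with medians of -0.01 and -0.00. With sgRNA1, 2 were higher (against 1.69% of all genes tested) and 1 lower (against 4.31%). With sgRNA3, 2 were higher (against 3.84%) and 4 lower (18.2%, against 5.25%). RPL7A (0.25 and 0.15) and RPL23 (0.16 and 0.12) were higher with both guides and RPL13A (-0.19 and -0.19) was lower with both, while RPS3 was lower with sgRNA3 (-0.16, limma adjusted p = 0.0303). For RPS3 sgRNA1 differed from LACZ by -0.01 (0.839), and sgRNA3 over sgRNA1 did not pass (-0.14, 0.114). Each of these calls was lost without LACZ replicate 1 or LACZ replicate 2 (0.0895 to 0.161), and also without replicate 1 or replicate 2 of the guide compared (0.0541 to 0.202). Under median-of-ratios scaling RPL13A and RPS3 did not pass, nor did RPL7A with sgRNA3 (0.0565), and RPL23 did not pass after quantile normalization.

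Of 25 factors of nonsense-mediated decay, 2 were higher with sgRNA1 (against 1.69% of all genes tested) and 3 with sgRNA3 (against 3.84%). None was lower (against 4.31% and 5.25%), and the medians were 0.04 and 0.03, so the list as a whole stood near 0. RBM8A, a core protein of the exon junction complex, had 218 and 215 TPM with sgRNA1 and 207 and 199 TPM with sgRNA3, against 158 and 153 TPM with LACZ. It rose by 0.48 and 0.38 (SE 0.04, limma adjusted p = 0.00681 and 0.0108). RNPS1, which joins that complex, had 120 and 110 TPM with sgRNA1 and 116 and 111 TPM with sgRNA3, against 84.3 and 86.5 TPM with LACZ, and rose by 0.42 and 0.40 (SE 0.06, adjusted p = 0.0264 and 0.0248). GSPT1, the translation termination factor eRF3a, rose by 0.20 with sgRNA3 (adjusted p = 0.0483). With sgRNA1 the log2 difference of GSPT1 was 0.12 (0.168, and 0.0435 under median-of-ratios scaling), and sgRNA3 over sgRNA1 did not pass (0.08, 0.428). The helicase UPF1 (0.13 and 0.33, adjusted p = 0.348 and 0.0522), its kinase SMG1 (-0.13 and 0.02) and the junction helicase EIF4A3 (0.11 and 0.25) were not called. UPF1 did pass with sgRNA3 when only genes of at least 5 TPM were tested (0.0391), under median-of-ratios scaling (0.0213), after quantile normalization (0.0307) and with array weights (0.0432). UPF3B (-0.35 and -0.17, limma adjusted p = 0.0744 and 0.260) and SMG9 (-0.33 and -0.22, 0.0740 and 0.147) lay below LACZ in all guide libraries and were not called. The sgRNA3 call of RBM8A was lost without LACZ replicate 1 (0.0582), LACZ replicate 2 (0.0699), sgRNA3 replicate 1 (0.0697) or sgRNA3 replicate 2 (0.0569), and its sgRNA1 call without LACZ replicate 2 (0.05003). RNPS1 lost its sgRNA1 call with any 1 of the 6 libraries left out (0.0588 to 0.132), and its sgRNA3 call without LACZ replicate 1 (0.113) or 2 (0.103) or sgRNA3 replicate 1 (0.117) or 2 (0.0880). GSPT1 lost its call with any 1 of the 6 libraries left out (0.0658 to 0.178).

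Of 10 protein-coding transcripts known as substrates of nonsense-mediated decay, 7 were lower with sgRNA1 (against 4.31% of all genes tested) and 6 with sgRNA3 (against 5.25%). The list medians were -1.04 and -0.95. Not every member fell. TBL2 (-0.17 and -0.03), UPP1 (-0.37 and -0.01) and SESN1 (0.43 and 0.35) were not called, and SESN1 lay above LACZ in all guide libraries. CDKN1A was lower with sgRNA1 only and differed by -0.01 with sgRNA3. GADD45B had 29.8 and 29.5 TPM with sgRNA1 and 28.0 and 28.3 TPM with sgRNA3, against 99.7 and 97.9 TPM with LACZ, and fell by 1.70 and 1.78 (limma adjusted p = 0.000442 and 0.000714). ATF4 fell by 0.96 and 0.90, DDIT3 by 1.72 and 1.45, and GADD45A by 1.20 and 1.05, all kept with any library left out. ATF4 and DDIT3 are transcription factors of the integrated stress response and GADD45A and GADD45B are stress-induced growth arrest genes. The list thus overlaps stress genes and cannot tell a change of the stress response from a change of decay. It was also chosen with earlier results of these data known. The share of the stress response or of decay in the fall of GAS5, SNHG1, SNHG5 and SNHG29 was not tested.

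**Figure D4:**
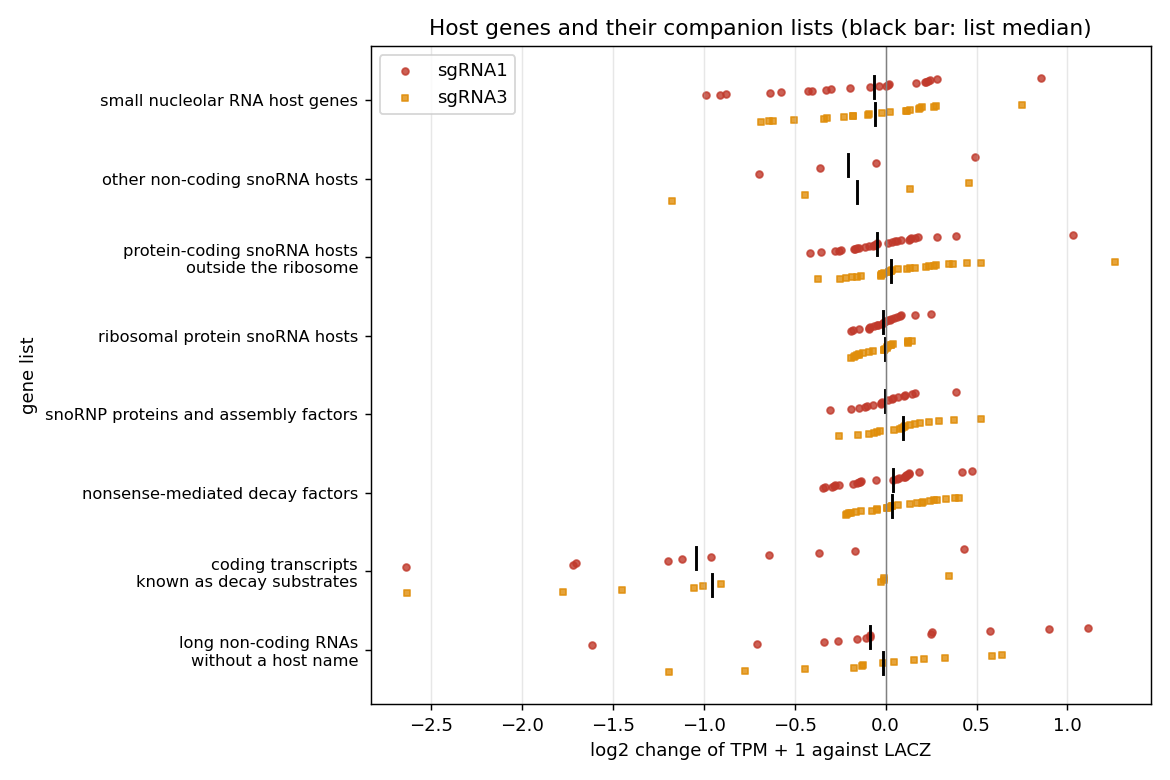
Log2 changes against LACZ of the tested genes of each list for sgRNA1 and sgRNA3, 1 point per gene, with a black bar at the median. The ribosomal protein hosts lie within 0.25 of 0, the host genes spread to both sides, and the median of the coding decay substrates is -1.04 for sgRNA1 and -0.95 for sgRNA3.

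Of 18 proteins of snoRNA particles and their assembly, 1 was higher with sgRNA1 (against 1.69% of all genes tested) and 2 with sgRNA3 (against 3.84%), and 0 were lower (against 4.31% and 5.25%), counts too small to set the list apart. NOP56 is counted here as well, and NOLC1, a nucleolar chaperone of these particles, had 146 and 139 TPM with sgRNA1 and 168 and 166 TPM with sgRNA3, against 127 and 131 TPM with LACZ. NOLC1 rose by 0.37 with sgRNA3 (SE 0.04, limma adjusted p = 0.0133), a call lost without LACZ replicate 1 (0.0785) or 2 (0.0699) or sgRNA3 replicate 1 (0.0817) or 2 (0.0768). The box C/D methyltransferase FBL (-0.02 and -0.05) and the box H/ACA pseudouridine synthase DKC1 (0.04 and 0.24, adjusted p = 0.763 and 0.0721) were not called. DKC1 passed with sgRNA3 under median-of-ratios scaling (0.0260) and after quantile normalization (0.0438), and NOLC1 with sgRNA1 under median-of-ratios scaling (0.0353). Medians were -0.00 and 0.09.

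Among 13 tested long non-coding RNAs that are not named as hosts, NEAT1 and PVT1 were lower with each guide. That is 15.4% with each guide, against 4.31% and 5.25% of all genes tested, and none was higher (against 1.69% and 3.84%). NEAT1, the scaffold of nuclear paraspeckles, had 90.5 and 75.7 TPM with sgRNA1 and 84.7 and 73.8 TPM with sgRNA3, against 139 and 133 TPM with LACZ, and fell by 0.71 and 0.78 (SE 0.11, limma adjusted p = 0.0289 and 0.0198). PVT1, a neighbour of MYC, fell by 1.61 and 1.19 (SE 0.21, adjusted p = 0.0202 and 0.0347). A fall of these sizes was thus not limited to snoRNA hosts. The calls of NEAT1 and PVT1 were lost without LACZ replicate 1 or 2 (0.0877 to 0.143) or without replicate 1 or 2 of the guide compared (0.0514 to 0.111), and the sgRNA3 call of PVT1 also without sgRNA1 replicate 1 (0.0541) or 2 (0.0535).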

How the data were processed

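Total RNA of CFPAC-1 cells was extracted with TRIzol and made into libraries by Illumina protocols, per the labels' protocols. The build GRCh38 and the tools HISAT2 2.1.0 and RSEM 1.3.1 are given per the submitters' processing notes. The authors deposited a single table of TPM values for 6 libraries, which was analysed with limma (version 3.58.1; R 4.3.3, and data.table at version 1.17.8), since TPM values are not counts. Library columns headed H1 or H3 were taken for the samples titled S1 or S3, whose guide number they carry.

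Values were fitted as log2(TPM + 1), which understates changes of low genes, in 1 model of 3 groups with an intensity trend (3 residual and 2.34 prior degrees of freedom), among genes that reached 1 TPM in at least 2 libraries. Each p is two-sided and Benjamini-Hochberg adjusted over all 16610 genes. The labels do not say whether libraries came from separate cultures, so a p-value reflects the spread between these libraries alone, which may be technical. An exact permutation test of 2 against 2 libraries cannot go below 0.333 and was not used.

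The host genes, 13 companion lists (154 entries, 153 matched by symbol) and tests were chosen with earlier results of these data known. Values per library were given for hosts called in a comparison and for the 8 with the highest mean TPM. From each list, up to 4 called genes with the smallest p were named, plus EIF4A3, UPF1, SMG1, FBL, DKC1, HSPA8 and TAF1D, every tested head-to-head neighbour, and SULF2. Hosts near the threshold or with a wide spread, and SEC14L1, were named after their values were seen. So were NOP14-AS1, UPF3B, SMG9, CDKN1A, TBL2, UPP1 and SESN1, for which the alternatives were not run. Neighbours, overlaps and starts came from GENCODE 29 (GRCh38) and promoters from RefSeq (GRCh38.p14). The handling of reads shared between near-identical copies is not stated. Alternatives covered pseudocount, low-value filter, scaling, removal of mitochondrial transcripts, variance trend, array weights, groups fitted, a replicate block, and each library left out; those for companion genes were added after the data were seen.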

Additional observations from a re-analysis of the deposited data

How the results depend on the processing

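With 2 libraries a group, the counts of called hosts depended on the variance model and on single libraries, and depth limits could not be given from TPM. Against 4 lower hosts with sgRNA1, 4 with sgRNA3 and 4 with both guides, there were 2, 1 and 1 without the variance trend. With no low-value filter 2 were lower with sgRNA3 and 2 with both guides. Under median-of-ratios scaling 2 were lower with sgRNA3 and 2 with both, while 1 was higher with sgRNA1, 2 with sgRNA3 and 1 with both (SNHG4, and SNHG14 with sgRNA3); quantile normalization gave 1 higher with sgRNA1. Leaving out 1 library gave 2 to 4 lower with sgRNA1, 1 to 3 with sgRNA3 and 1 to 2 with both, a lone library being assumed to vary like the other groups. No host was called between the guides under any of the 17 alternatives.

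SNHG1 kept both calls under all 17 alternatives and GAS5 its sgRNA1 call, while the sgRNA3 call of GAS5 was also lost without the variance trend (0.0514). SNHG5 lost its sgRNA1 and sgRNA3 calls with no filter (0.0533 and 0.0866) and without the trend (0.0614 and 0.0805), and its sgRNA3 call under median-of-ratios scaling (0.0559). SNHG29 lost both without the trend (0.0949 and 0.202), and its sgRNA3 call with no filter (0.0941) or with only the compared groups fitted (0.0504). The cause was not tested.

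Median-of-ratios scaling moved the median change of all genes to 0.00 for each guide, where it had been -0.07 and -0.05. It gave 606 higher and 576 lower genes with sgRNA1 (281 and 716 without it) and 1042 and 788 with sgRNA3 (637 and 872). Quantile normalization gave 442 and 560, and 776 and 808. The median change of the hosts with sgRNA1 was 0.02 under either scaling, against -0.06.

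Replicate numbers are shared between groups, but same-numbered libraries did not deviate together (r = -0.03, -0.02 and 0.01 across genes). No shared shift by number was thus seen, and the labels do not say whether same-numbered libraries were prepared together. With the replicate number as a block, 3 hosts were lower with sgRNA1 (GAS5, SNHG1 and SNHG29), while 2 were lower with sgRNA3 and 2 with both guides (GAS5 and SNHG1).

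For the companion genes and neighbours named by rule, with SEC14L1 and SULF2, 71 gene comparisons gave 1198 values over the alternatives. Of these values, 946 kept direction and side of the threshold, 219 lost the call, 14 gained one and 19 changed sign. Signs of uncalled genes changed as follows. Median-of-ratios scaling gave log2 differences of 0.045 (SNHG3), 0.073 (RPS3), 0.063 (FBL) and 0.011 (TRAF7) with sgRNA1, 0.029 (SNHG11), 0.0081 (FBL) and 0.045 (RPS2) with sgRNA3, and -0.011 (SNHG8) between the guides. Quantile normalization gave 0.041 (SNHG11), 0.052 (SNHG3), 0.011 (FBL) and 0.0014 (TRAF7) with sgRNA1, 0.057 (SNHG11), 0.021 (SNHG9), -0.016 (SNHG8), -0.0020 (TAF1D) and 0.015 (RPS2) with sgRNA3, and -0.018 (SNHG8) between the guides. With 1 library left out, log2 differences that changed sign ranged, for sgRNA1, from -0.33 to 0.15 (SNHG11), -0.038 to 0.074 (SNHG12), -0.047 to 0.077 (SNHG14), -0.12 to 0.59 (SNHG19), -0.12 to 0.56 (SNHG22), -0.066 to 0.075 (SNHG8), -0.029 to 0.0064 (RPS3), -0.17 to 0.13 (FBL), -0.026 to 0.098 (DKC1), -0.32 to 0.27 (AC015802.4) and -0.21 to 0.065 (TRAF7). For sgRNA3 they ranged from -0.15 to 0.11 (SNHG11), -0.15 to 0.37 (SNHG7), -0.91 to 0.72 (SNHG9), -0.45 to 0.27 (SNHG19), -0.20 to 0.58 (SNHG22), -0.087 to 0.13 (SNHG8), -0.024 to 0.073 (SMG1), -0.039 to 0.076 (TAF1D) and -0.027 to 0.0057 (RPS2). Between the guides they ranged from -0.17 to 0.31 (SNHG11), -0.31 to 0.20 (SNHG7), -0.21 to 0.016 (SNHG6), -0.12 to 0.59 (SNHG21), -0.42 to 0.35 (SNHG22), -0.092 to 0.13 (SNHG8) and -0.049 to 0.014 (SNHG4). None of these was called in the fit of all libraries.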
